A study of Mus musculus with 10 samples.

Results

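Voltage-gated potassium (Kv) channels let potassium out of a neuron when its membrane depolarizes, and thereby set the resting excitability, the shape of the action potential and the rate of firing. Each channel is built around alpha subunits that line the pore, and the genes studied here are those whose mouse symbol is *Kcna*, *Kcnb*, *Kcnc*, *Kcnd*, *Kcnf*, *Kcng*, *Kcnh*, *Kcnq*, *Kcns* or *Kcnv* followed by a number. This rule selected 40 genes among the 55414 of each count file, by symbol. It uses no measured value itself, but it was chosen with earlier results of these data known. They were measured by bulk RNA-sequencing of dorsal root ganglia (DRG) at E18.5 in 5 control and 5 *WD1* cKO libraries, where *Wnt1*-Cre, active in neural crest cells and thus in the neurons and the glia that they form, recombines a floxed *Dach1* allele. The floxed line was of mixed C57Bl/6J and CD1 background, the controls were littermates described as lacking the Cre recombinase, and sex and litter are not given for any library.

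The genotype entries of the labels give the libraries titled control as Wnt1Cre/+Dach1 flox/flox and those titled as *Wnt1*-Cre mutants as Wnt1+/+Dach1 flox/flox, which is opposite to the titles. The titles were followed. *Dach1* had 35.1, 38.5, 41.6, 37.1 and 37.4 CPM (counts in proportion to the library's TMM-scaled total) in control replicates 1 to 5 and 19.1, 20.7, 19.5, 20.3 and 20.4 CPM in *WD1* cKO replicates 1 to 5, so that it was lower in every library titled as mutant. Control libraries held 20465132 to 27528784 counts and *WD1* cKO libraries 19757596 to 34796562. The ganglion label was borne out by its neuronal markers, with a summed level of 8 genes, among them *Isl1*, *Pou4f1*, *Avil*, *Prph* and *Tubb3*, of 6386 to 6780 CPM in control and 6327 to 6585 CPM in *WD1* cKO libraries. Of these 8 genes, 2 (*Ntrk2* among them) were lower in *WD1* cKO at an unadjusted p under 0.05. The summed level in control and *WD1* cKO libraries, in this order, was 789.8 to 933 and 787 to 975 CPM for 6 glial genes, 55.7 to 62.5 and 53.9 to 62.4 CPM for 6 macrophage genes, 348 to 419 and 366 to 406 CPM for 6 endothelial and mural genes, 4119 to 5757 and 4567 to 5356 CPM for 5 connective tissue genes, 28.2 to 197 and 51.3 to 108 CPM for 6 skeletal muscle genes and 155 to 2464 and 189 to 1134 CPM for 5 blood genes. In the spinal cord list of 6 genes, control replicate 3 was the highest library and the other 9 had 0.126 to 1.13 CPM. In the other lists, 1 connective tissue gene was higher at an unadjusted p under 0.05, while the 6 spinal cord genes were too low to be tested.

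Kv alpha subunits fall into classes with different work. Kv1 channels, encoded by *Kcna* genes, open near the resting potential and restrain repetitive firing, and Kv1.1 and Kv1.2 sit beside the node of Ranvier. Kv2 channels (*Kcnb*) are slow delayed rectifiers, Kv3 channels (*Kcnc*) open and close quickly at depolarized potentials and allow brief spikes and fast firing, and Kv4 channels (*Kcnd*) carry a rapidly inactivating current below spike threshold. Kv7 channels (*Kcnq*) carry the M-current, which damps repetitive firing. The *Kcnh* genes encode the ether-à-go-go channels Kv10, Kv11 and Kv12. Subunits of *Kcnf*, *Kcng*, *Kcns* and *Kcnv* are called silent, because they form no channel alone but modify Kv2 channels when they join them.

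All these classes share the potassium selectivity filter. Its 5 codons, 15 bases, were searched in frame in the longest suitable protein-coding transcript of each gene in GENCODE M21 (GRCm38), and were found in 32 of the 35 members searched. The stretches of 7 members whose values are given in every library are shown. Capitals mark the 15 filter bases, with 15 coding bases on each side, 5′ to 3′.
*Kcna6*: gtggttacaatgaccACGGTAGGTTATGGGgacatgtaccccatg
*Kcnc1*: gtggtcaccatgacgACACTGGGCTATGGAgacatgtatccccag
*Kcnc4*: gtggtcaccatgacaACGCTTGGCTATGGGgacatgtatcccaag
*Kcnd1*: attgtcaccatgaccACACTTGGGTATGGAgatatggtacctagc
*Kcnh6*: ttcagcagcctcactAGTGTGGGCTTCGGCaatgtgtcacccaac
*Kcng1*: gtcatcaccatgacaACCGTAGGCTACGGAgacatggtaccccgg
*Kcnv1*: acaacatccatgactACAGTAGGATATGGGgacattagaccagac
Between *Kcnc1* and the other members, from 8 to 14 of the 15 filter bases were identical, with 14 in *Kcnd3* and *Kcns3*. The search itself required some of these bases, so part of this identity was set in advance and does not measure how alike the genes are. The 8 *Kcnh* members, of which *Kcnh6* is shown, carried the form of the filter known from ether-à-go-go channels. No match was found in *Kcnc2*, *Kcnq1* and *Kcnv2* with the forms searched. How reads that map to several genes were counted is not stated.

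Levels of different genes were compared as CPM per kilobase of annotated exons. In control libraries the 40 members summed to 304 ± 13.8 CPM per kilobase (SD, n = 5), against 299.9 ± 7.42 (SD, n = 5) in *WD1* cKO, and their control and *WD1* cKO libraries overlapped. By this measure the Kv1 genes held 22.9% of the control sum, the *Kcnh* genes 22.0%, the Kv7 genes 15.1%, the Kv4 genes 13.5%, the Kv3 genes 12.3% and the silent subunits 7.33%. In *WD1* cKO embryos the shares were 23.3%, 21.6%, 15.6%, 13.1%, 12.2% and 7.50% in the same order. These classes thus kept their order in *WD1* cKO libraries, on the scale of levels.

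The highest member was *Kcna6* (Kv1.6), at 33.2 ± 1.43 CPM per kilobase (SD, n = 5) in control libraries, followed by *Kcnh6* (Kv11.2) at 30.6 ± 1.34 and *Kcnd1* (Kv4.1) at 29.7 ± 1.57. Control libraries of neighbours among these 3 genes overlapped, so their order is not settled, but every control library of *Kcnd1* was above every control library of *Kcnc4* (Kv3.4). *Kcnc4* stood at 20.3 ± 4.21, *Kcna2* (Kv1.2) at 20.2 ± 1.63 and *Kcnh2* (Kv11.1) at 19.7 ± 1.47 CPM per kilobase, again with overlapping neighbours. In turn, every control library of *Kcnh2* was above every one of *Kcnd3* (Kv4.3), at 9.97 ± 0.513. The 10 highest genes held 71.1% of the summed level. In all, 31 members were at or above 1 CPM per kilobase in control libraries, and *Kcng4*, *Kcng3*, *Kcna10* and *Kcnv2* were under 0.1. The length used holds every annotated exon.

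**Figure D1:**
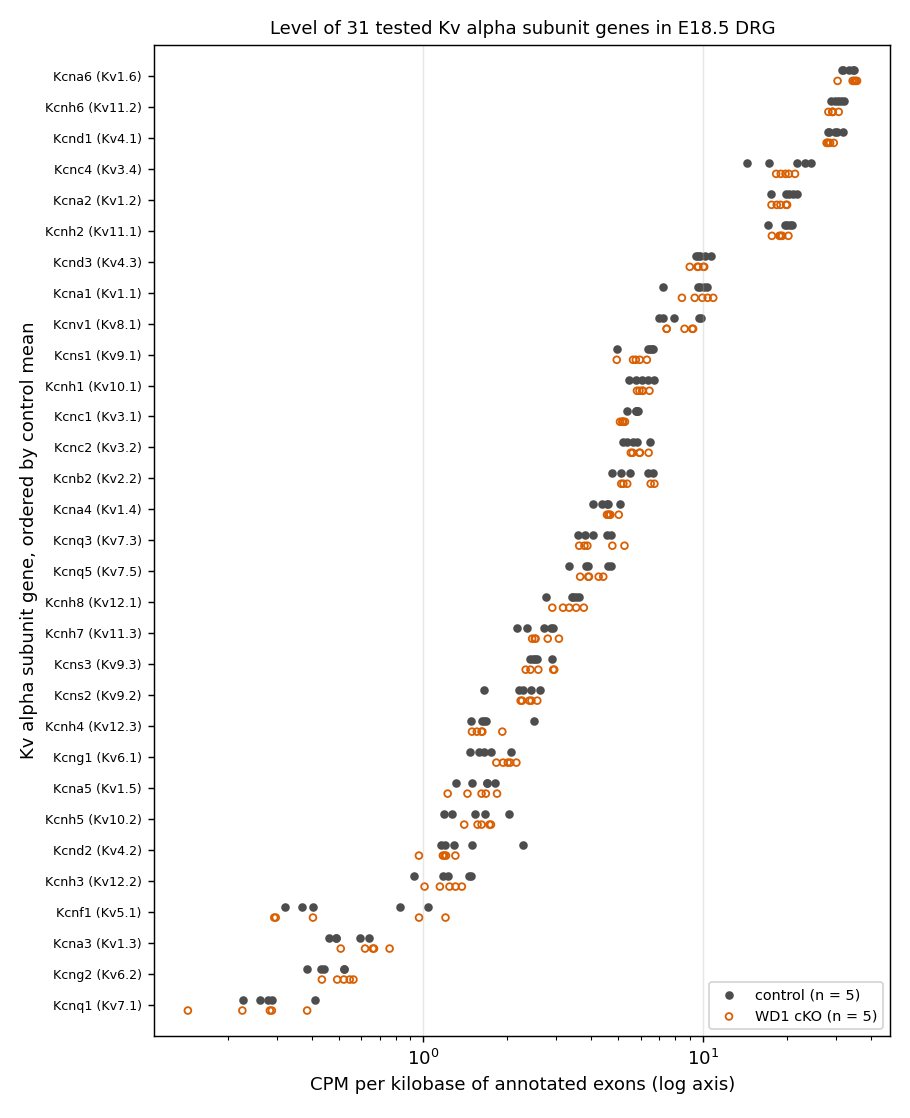
Level of 31 tested Kv alpha subunit genes, as CPM per kilobase of annotated exons on a log axis, with 1 point per library (filled, control; open, *WD1* cKO; n = 5 each) and genes ordered by the control mean. *Kcna6*, *Kcnh6* and *Kcnd1* form the top, the points of both groups lie over each other for nearly every gene, and *Kcnf1* has the widest spread.

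To ask which Kv genes change when *Dach1* is lost, counts were compared between *WD1* cKO and control libraries with edgeR's quasi-likelihood test over all 17490 genes that had at least 10 counts in at least 5 libraries. Of the 40 members, 35 passed this filter. The other 5 were *Kcna7*, *Kcna10*, *Kcng3*, *Kcng4* and *Kcnv2*, which are counted at most 17 times in any library and were not tested. None of the 35 had an adjusted p-value under 0.05 (Benjamini-Hochberg over all genes tested), where 0.04% of all genes tested did, and 0 of the 35 passed in DESeq2's Wald test. At an unadjusted p under 0.05, 1 member was lower (*Kcnc1*) and 2 were higher (*Kcng1* among them), against 2.38% lower and 2.12% higher among all genes tested. DESeq2 also gave 3 members at this level. In whole ganglia, fewer cells of a type and less RNA per cell cannot be told apart.

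The median log2 fold change of the 35 members was -0.0068, beside 0.00022 over all genes tested, and the median absolute log2 fold change was 0.051 beside 0.053. By sign, 16 members were above and 19 below 0, and 29 were within 0.15 of it. The data also bound what may have been missed in the average over all cells of the ganglion. The 95% interval of the log2 fold change lay within ±0.5 for 31 of the 35 members, and within ±1 for all but *Kcnf1*. For *Kcnf1* alone among those tested, a change of this average by a factor of 2 was not outside the interval. A larger change confined to a small part of the cells could lie inside these bounds, and was not tested. By class, the median log2 fold change was 0.046 for 6 Kv1 genes, -0.021 for 4 Kv3 genes, -0.062 for 3 Kv4 genes, -0.016 for 5 Kv7 genes, -0.028 for 8 *Kcnh* genes and 0.089 for 7 silent subunits. All 3 Kv4 genes were below 0 and 6 of the 7 silent subunits above it, none of them with an adjusted p-value under 0.05.

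**Figure D2:**
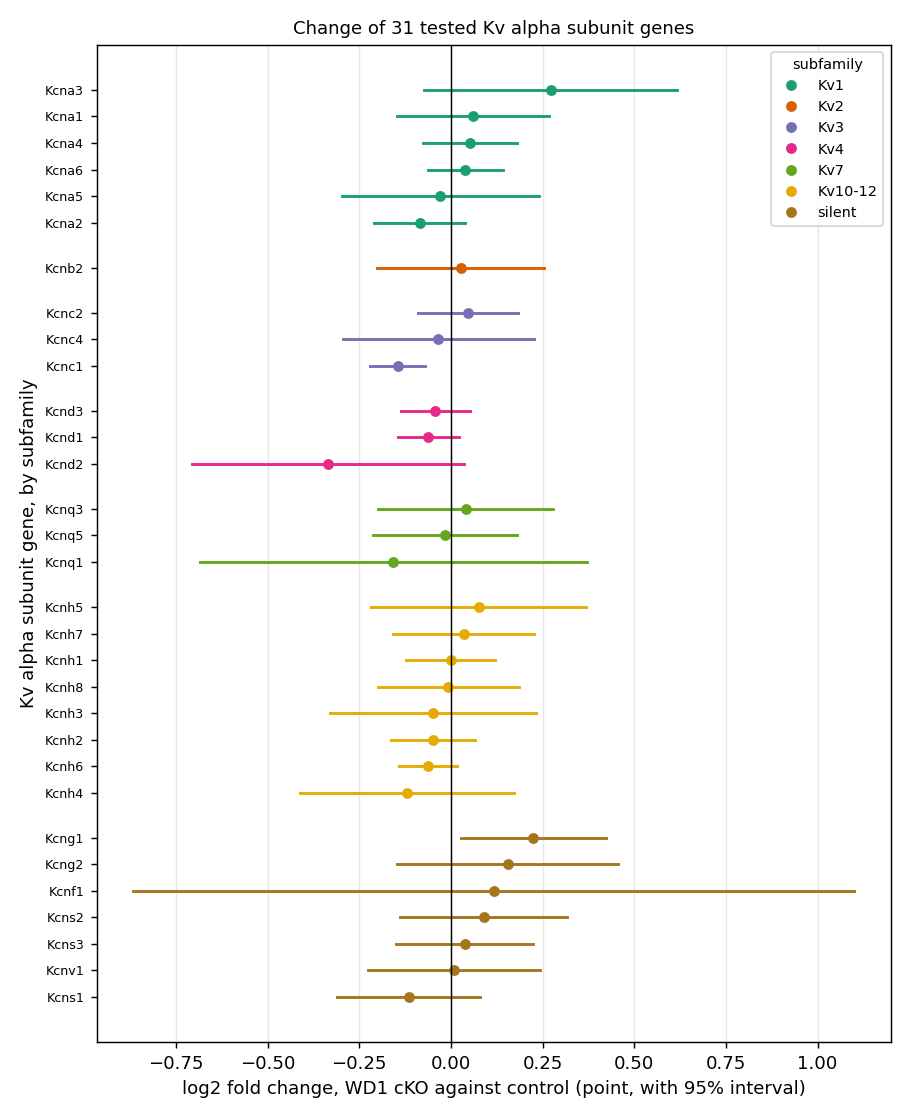
Log2 fold change between *WD1* cKO and control DRG for 31 tested Kv alpha subunit genes, with its 95% interval from the edgeR fit, grouped by class. The intervals of *Kcnc1* (below 0) and *Kcng1* (above 0) leave out 0 before any adjustment, and the widest interval is that of *Kcnf1*.

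Among the Kv3 genes, *Kcnc1* (ENSMUSG00000058975, chromosome 7), which encodes Kv3.1 of fast-firing neurons, had 50.6, 55.5, 54.7, 54.9 and 55.1 CPM in control replicates 1 to 5 and 49.2, 49.9, 47.9, 49.1 and 48.8 CPM in *WD1* cKO replicates 1 to 5. All 5 *WD1* cKO values lay under the lowest control value, although control replicate 1 came within 1 CPM of the highest *WD1* cKO library. The mean was 54.2 ± 1.99 CPM (SD, n = 5) in control and 49.0 ± 0.721 CPM (SD, n = 5) in *WD1* cKO, a difference of -9.56%. The log2 fold change was -0.15 (standard error 0.035, 95% interval -0.22 to -0.07), with an unadjusted p of 0.00126 and an adjusted p of 0.784 (edgeR). The exact permutation test gave a two-sided p of 0.00794, the smallest that 5 libraries against 5 allow. Groups without overlap give this p by necessity, so it adds nothing to their separation. Groups without overlap in either direction were seen for this 1 of 35 members and for 1.06% of all genes tested, 0.566% with *WD1* cKO lower. Over the alternatives the adjusted p of *Kcnc1* ranged from 0.173 to 1.00, and its log2 fold change stayed between -0.17 and -0.14 when any one library was left out. The study's cut-off, an unadjusted p under 0.005 together with a log2 fold change beyond 0.15 either way, was passed by 0 members and 0.383% of genes, *Kcnc1* lying just under the limit on fold change. *Kcnc1* passed it with *Xist* as a covariate, at a log2 fold change of -0.15. It also passed without control replicate 1 (-0.17) or *WD1* cKO replicate 2 (-0.15). *Kcng1* passed it without control replicate 4 (0.30). *Kcnc4* passed it in libraries numbered 4 and 5 only (-0.25), against 0.13 in those numbered 1 to 3. Control replicate 1 held the lowest control value of *Kcnc1*, and *WD1* cKO replicate 2 its highest *WD1* cKO value. Control replicate 4 held the highest control value of *Kcng1*. Leaving out such a library widens the difference between the groups.

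*Kcnc1* being the one member with separate groups, the RefSeq promoter of the gene (GRCm38.p6, chr7:46396218-46396517, plus strand, 250 bases before to 50 after the start) is shown. Capitals mark GGGCGG, the GC box, and TGACG, the core of the cyclic AMP response element, each searched on both strands.
*Kcnc1* promoter: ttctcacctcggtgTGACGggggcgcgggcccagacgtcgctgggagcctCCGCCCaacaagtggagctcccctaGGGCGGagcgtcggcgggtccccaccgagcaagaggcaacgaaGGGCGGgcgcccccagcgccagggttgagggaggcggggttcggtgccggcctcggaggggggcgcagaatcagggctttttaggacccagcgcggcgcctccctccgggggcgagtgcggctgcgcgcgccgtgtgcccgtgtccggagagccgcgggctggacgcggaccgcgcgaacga
It holds 3 GC boxes and 1 TGACG in 300 bases, without overlap, and 74.7% of its bases are G or C, beside a median of 52.7% over 32851 promoters. A GC box occurs in 35.7% of all promoters of the table and in 18 of the 30 entries of 25 Kv members, and TGACG in 20.8% of all and in 7 of those 30. These are matches of letters only.

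The other Kv3 genes gave no such separation. *Kcnc4* (Kv3.4), the highest Kv3 gene per kilobase, had 63.6, 53.0, 80.1, 85.3 and 89.6 CPM in control and 69.9, 78.6, 67.3, 72.7 and 74.7 CPM in *WD1* cKO replicates 1 to 5. All 5 *WD1* cKO libraries lay inside the range of the controls, whose spread was wide. Its log2 fold change was -0.03 (standard error 0.12, 95% interval -0.29 to 0.23), and that of *Kcnc2* was 0.05. In libraries numbered 4 and 5 only, the log2 fold change of *Kcnc4* was -0.25 (unadjusted p = 0.00128 by edgeR), and in those numbered 1 to 3 only it was 0.13. Whether the change of *Kcnc1* differs from that of the other Kv3 genes was not tested.

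Among the Kv7 genes, *Kcnq3*, a subunit of the M-channel, had a log2 fold change of 0.04, *Kcnq5* of -0.02 and *Kcnq1*, known from heart and epithelia, of -0.16. *Kcnq1* was counted only 14 to 38 times per library and its exons overlap those of *Kcnq1ot1* on the opposite strand, and as the strand setting of the counting is not stated, its reads are uncertain.

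Of the silent subunits, *Kcng1* (ENSMUSG00000074575, chromosome 2; Kv6.1) had 7.46, 6.66, 7.15, 9.27 and 7.87 CPM in control and 8.72, 9.73, 8.25, 9.25 and 9.06 CPM in *WD1* cKO replicates 1 to 5. The *WD1* cKO libraries were above 4 of the 5 controls and 1 of them was above all 5. The log2 fold change was 0.22 (standard error 0.091, 95% interval 0.03 to 0.42; unadjusted p = 0.0293, adjusted p = 1.00 by edgeR), and the exact permutation test gave a two-sided p of 0.0476. With any one library left out, the unadjusted p ranged from 0.0025, without control replicate 4, to 0.0757 without control replicate 2, and was under 0.05 in 4 of 10 fits. *Kcnv1* (Kv8.1), the highest silent subunit per kilobase, had 33.1, 31.9, 36.2, 45.5 and 44.4 CPM in control and 34.1, 39.6, 34.1, 42.4 and 42.1 CPM in *WD1* cKO replicates. Its groups overlapped fully, with a log2 fold change of 0.01 (95% interval -0.23 to 0.24). *Kcns1* (Kv9.1) had a log2 fold change of -0.11, *Kcns2* (Kv9.2) of 0.09, *Kcns3* (Kv9.3) of 0.04 and *Kcng2* (Kv6.2) of 0.15.

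*Kcnf1* (Kv5.1) was the least even of the tested members, with a coefficient of variation of 54.4% in control and 66.9% in *WD1* cKO libraries. It had 4.97, 3.97, 1.93, 1.77 and 1.54 CPM in control and 4.63, 1.41, 5.76, 1.42 and 1.93 CPM in *WD1* cKO replicates 1 to 5. High and low libraries occurred in both groups, with 28 to 174 counts behind each value, and the highest library was 3.23 times the lowest in control and 4.10 times in *WD1* cKO. Its log2 fold change was 0.12 with a 95% interval of -0.87 to 1.10. It moved from -0.26 without *WD1* cKO replicate 3 to 0.41 without control replicate 1, so that single libraries turned its direction.

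Among the Kv1 genes, *Kcna6* had 188, 190, 206, 199 and 205 CPM in control and 212, 207, 205, 210 and 181 CPM in *WD1* cKO replicates 1 to 5. Of the *WD1* cKO libraries, 3 were above and 1 was below all controls, and the log2 fold change was 0.04 (95% interval -0.06 to 0.14). *Kcna1* and *Kcna2*, which form the juxtaparanodal channel, had log2 fold changes of 0.06 (95% interval -0.15 to 0.27) and -0.08 (95% interval -0.21 to 0.04). *Kcna4* (Kv1.4), which inactivates quickly, was at 0.05 and *Kcna5* at -0.03 on the log2 scale. *Kcna3* (Kv1.3), best known from lymphocytes and microglia, was low, at 19 to 44 counts per library, and had a log2 fold change of 0.27 (95% interval -0.07 to 0.62).

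The delayed rectifier *Kcnb2* (Kv2.2) had a log2 fold change of 0.03. Among the Kv4 genes, *Kcnd1*, on chromosome X, had 158, 149, 148, 160 and 168 CPM in control and 147, 156, 149, 151 and 148 CPM in *WD1* cKO replicates. Of its *WD1* cKO libraries, 2 were below all controls and the rest inside their range. The value on the log2 scale was -0.06 for *Kcnd1* (95% interval -0.14 to 0.02) and -0.04 for *Kcnd3* (95% interval -0.14 to 0.05).

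*Kcnd2* (Kv4.2) had the fitted value farthest from 0. It had 5.95, 6.17, 11.7, 7.69 and 6.64 CPM in control and 6.07, 6.73, 6.23, 4.98 and 6.15 CPM in *WD1* cKO replicates 1 to 5, at a log2 fold change of -0.34 (95% interval -0.71 to 0.04, unadjusted p = 0.0725 from edgeR's quasi-likelihood test). Control replicate 3 was far above the rest, and without it the log2 fold change was -0.13 (unadjusted p = 0.236 from the same test). This is the library with the raised spinal cord genes, at 4.66 CPM of *Slc6a5*, 3.81 of *Pax2*, 2.68 of *Olig1* and 0.800 of *Olig2*, while *Mnx1* was at 0 and *Chat* at 0.0471 CPM. Among the controls it also had the lowest summed level of the DRG neuron markers and the highest of the connective tissue genes. In the same library *Kcnh4* (Kv12.3) reached 9.89 CPM, while the remaining controls had 5.85 to 6.66 CPM, and *Kcna1* had 34.5 CPM where they had 46.1 to 49.5. The part of other tissue in these values was not tested. Without this library, 5 members had an unadjusted p under 0.05 by edgeR, but the share over all genes in that fit is not given here.

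**Figure D3:**
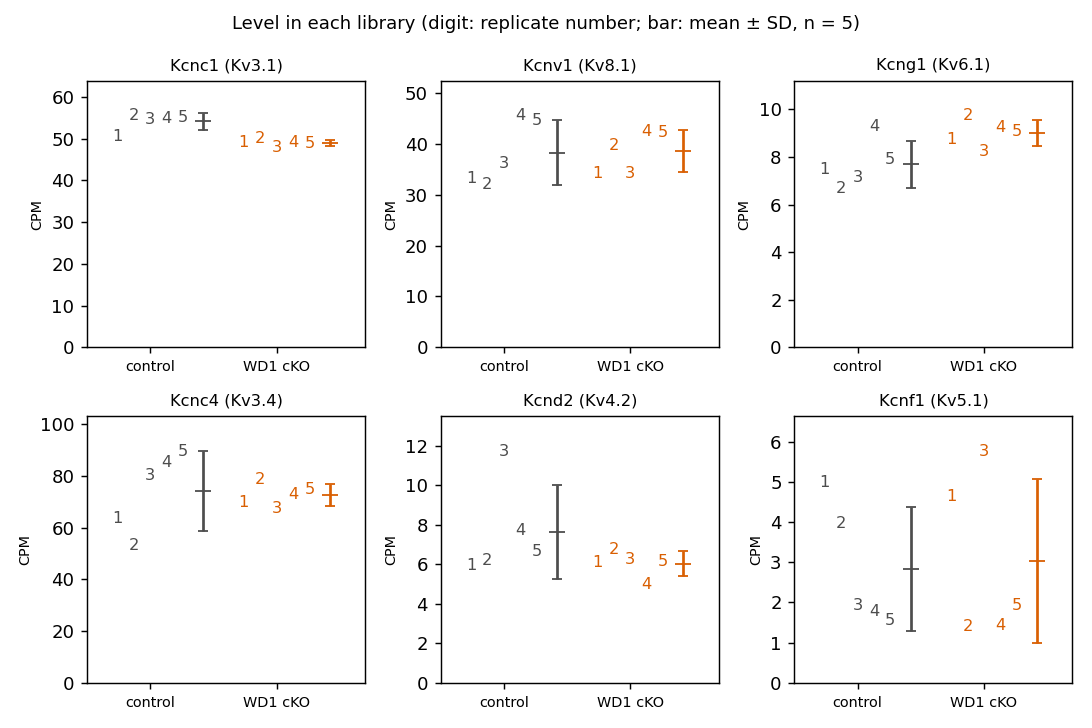
Level (CPM, axis from 0) of 6 Kv genes in each library, drawn as its replicate number, with the mean ± SD of each group beside it (n = 5). *Kcnc1* separates the groups by a small margin, *Kcnv1* is higher in replicates 4 and 5 of both groups, control replicate 3 lifts *Kcnd2*, and *Kcnc4* and *Kcnf1* vary more within the groups than between them.

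None of the 8 ether-à-go-go genes had an unadjusted p under 0.05, with 2 above and 6 below 0. *Kcnh6*, the highest, had 106, 111, 102, 114 and 109 CPM in control and 104, 103, 104, 109 and 100 CPM in *WD1* cKO replicates 1 to 5. Its groups overlapped, with 1 *WD1* cKO library below all controls, and its log2 fold change was -0.06 (95% interval -0.14 to 0.02). The values were -0.05 for *Kcnh2*, whose channel shapes the late phase of the cardiac action potential, -0.00086 for *Kcnh1*, 0.08 for *Kcnh5*, 0.03 for *Kcnh7*, -0.0068 for *Kcnh8*, -0.05 for *Kcnh3* and -0.12 for *Kcnh4*. Exons of *Kcnh3* overlap those of *Mcrs1* and exons of *Kcnh7* those of *Gca* on the opposite strand, so these values are uncertain in the same way as that of *Kcnq1*. Of the other members named here, exons of *Kcna6*, *Kcnd3*, *Kcng2* and *Kcnq5* also overlap those of a gene on the opposite strand. For the first 3, that gene had 197, 161 and 4 counts over the 10 libraries, and for *Kcnq5* it was not among the genes counted.

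Several Kv genes also differed with the replicate number. In both groups, every library numbered 4 or 5 was above every library numbered 1 to 3 for *Kcnb2*, *Kcnq3*, *Kcnq5*, *Kcnv1* and *Kcnh7*, and below for *Kcna5*. These are 5 and 1 of 35 members, beside 8.24% and 7.15% of all genes tested. The difference of mean log2 CPM between the numbers was 0.35 in control and 0.34 in *WD1* cKO libraries for *Kcnb2*, 0.29 and 0.41 for *Kcnq3*, 0.34 and 0.18 for *Kcnq5*, 0.42 and 0.24 for *Kcnv1*, 0.27 and 0.23 for *Kcnh7*, and -0.30 and -0.36 for *Kcna5*. What the numbers stand for is not given in the labels, and the summed blood genes also differed between them, with 509 to 2464 CPM in libraries numbered 1 to 3 and 155 to 243 CPM in those numbered 4 and 5. The part of blood or of any batch in these values was not tested. Both numbers occur in both groups. Within libraries numbered 1 to 3 and within those numbered 4 and 5, the log2 fold change between the genotypes was -0.13 and -0.17 for *Kcnc1*, and 0.33 and 0.09 for *Kcng1*.

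**Figure D4:**
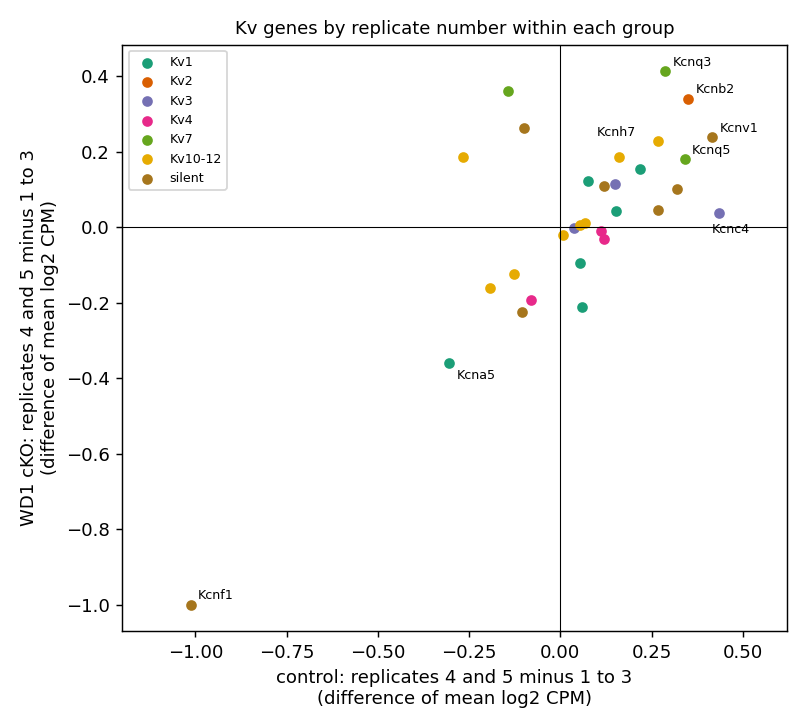
Difference of mean log2 CPM between libraries numbered 4 and 5 and those numbered 1 to 3, within control (horizontal axis) and within *WD1* cKO libraries (vertical axis), for 31 tested Kv genes coloured by class. *Kcnb2*, *Kcnq3*, *Kcnq5* and *Kcnv1* lie at the upper right, *Kcna5* and *Kcnf1* at the lower left, and *Kcnc4* is high in the control libraries only.

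Kv channels also carry auxiliary subunits. Of 15 such genes, 13 were tested, and *Kcnip1*, a calcium-binding partner of Kv4 channels, was lower at an unadjusted p under 0.05, with 0 higher. It had 17.9, 17.5, 19.9, 15.5 and 16.7 CPM in control and 18.03, 14.9, 14.8, 14.3 and 13.7 CPM in *WD1* cKO replicates 1 to 5, with 4 *WD1* cKO libraries below all controls. Its log2 fold change was -0.21 (standard error 0.085, unadjusted p = 0.0307, adjusted p = 1.00 by edgeR; exact permutation test, two-sided p = 0.0556). The highest auxiliary genes, *Dpp6* of the Kv4 complex and *Kcnab2*, the Kv1 beta subunit, had log2 fold changes of -0.04 and -0.06. Of 7 genes whose products gather Kv1 channels at the axon, among them *Cntn2* at -0.08 and *Adam22* at 0.03, 7 were tested and 0 had an unadjusted p under 0.05. In the other potassium channel classes, counted for comparison, this was so for 1 of 9 tested *Kcnj* genes (lower), 0 of 12 *Kcnk* genes and 0 of 8 calcium- or sodium-activated channel genes, with median log2 fold changes of -0.03, 0.02 and -0.05.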

How the data were processed

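The 5 control and 5 *WD1* cKO libraries are bulk stranded mRNA libraries of E18.5 DRG. The authors aligned reads to GRCm39 with STAR 2.7.8a and counted them per Ensembl gene with featureCounts 2.0.1, and the deposited values are raw counts of each library. The strand setting and the treatment of reads that map to several places are not given in the sources used here.

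Libraries were grouped by title. Symbols and exon lengths came from GENCODE M21 (GRCm38), which named 52133 of 55414 identifiers. Genes reaching 10 counts in 5 or more libraries were scaled by TMM and compared in R 4.3.3 with edgeR 4.0.16 (glmQLFTest, no covariate, Benjamini-Hochberg adjustment over all genes tested). CPM use the same scaling, and 95% intervals are unadjusted. Exact permutation tests were two-sided on group means of log2 CPM (prior count 1), over 252 splits. Pairs of libraries within a group differed beyond counting error (chi-square divided by its degrees of freedom, 4.39 to 15.4), so each counted as 1 replicate. The study gives its RNA-sequencing groups as 5 control and 5 *WD1* cKO embryos, and p-values measure the spread between these libraries. The fits were tested on simulated data. These had the same dispersion for all genes, no difference by replicate number, and added changes larger than those fitted for most Kv genes.

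Values in every library are given for the highest member of each class per kilobase, for members with an unadjusted p under 0.05 and for those whose groups do not overlap. *Kcnd2* and *Kcnf1* were added after their values were seen, and some genes are not reported here by name. The members, lists and tests were chosen with earlier results of these data known. Alternatives were DESeq2's size factors, DESeq2 1.42.0, other filters on low counts, the replicate number as a block, *Xist* as a covariate, robust dispersions, subsets by replicate number and each library left out.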

Additional observations from a re-analysis of the deposited data

Results flagged for a closer look

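Within each group of 5 libraries, the level of 31 tested Kv genes was searched for a library set apart from its nearest neighbour by most of the group's range. Of 62 groups, 8 held one, and chance would give 3.1 if the genes varied independently of each other. The same share over all genes tested is not given here, so no excess particular to the Kv genes can be read from this count.

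Control replicate 3 stood apart in 4 of them, at 34.5 CPM of *Kcna1* (other controls 46.1 to 49.5), 13.4 CPM of *Kcns1* (17.3 or more), 9.89 CPM of *Kcnh4* (5.85 to 6.66) and 9.18 CPM of *Kcns3* (at least 7.65, all below it). The first pair was low and the second pair high in this library. *Kcnc1* in control replicate 1 was at 50.6 CPM, below the other controls at 54.7 to 55.5, and *Kcnh8* in control replicate 4 was at 12.5 CPM, below 15.6 to 16.5. In *WD1* cKO, *Kcna4* in replicate 4 was at 24.2 CPM, above 22.0 to 22.6, and *Kcna6* in replicate 5 at 181 CPM, below 205 to 212. Without control replicate 1, the log2 fold change of *Kcnc1* was -0.17 with an unadjusted p of 0.000186 and an adjusted p of 0.253 by edgeR.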

How the results depend on the processing

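In every alternative, 0 Kv members had an adjusted p under 0.05 (the lowest was 0.173, of *Kcnc1*). The number of all genes called at this level was 7, and became 4 where the mean count had to reach 100, 4 with *Xist* in the model, 19 under DESeq2's Wald test, 3 in libraries numbered 1 to 3 only, 3 in those numbered 4 and 5 only, and 3 to 6 with 1 library left out. The number of members with an unadjusted p under 0.05 was 3, became 5 with *Xist* as a covariate (*Kcna2* at -0.13 and *Kcna3* at 0.39 were added), and 2 to 5 with 1 library left out (5 without control replicate 3). No share over all genes at this level is given for any alternative, so these counts of members cannot be set beside one. The median log2 fold change of the members ranged from -0.022 to 0.017 with 1 library left out. *Kcnc1* and *Kcng1* kept their direction throughout, as did other members, among them *Kcna2*, *Kcnd1*, *Kcnd2*, *Kcnh6* and *Kcns1*. Most of these fits share most of their libraries.

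With the replicate number as a block, 8 genes were called, 3 members had an unadjusted p under 0.05, and the median of the members was -0.0083. The log2 fold change was -0.14 for *Kcnc1* and 0.23 for *Kcng1*. Deviations of libraries with the same number correlated at 0.0404 to 0.390, 1 of the 5 pairs was under 0.1, and 7 of 10 libraries correlated best with their own number. The remaining libraries correlated best with another number of the same set, 1 to 3 or 4 and 5. The labels state no pairing, and whether pairing or the split between these sets gave the matches was not tested.

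Several members changed sign, among them *Kcnq1*, *Kcnh4* and *Kcnf1*, and the cause was not tested. Without a filter on low counts, the log2 fold change was 0.0092 for *Kcnh1*, 0.0031 for *Kcnh8*. Where the mean count had to reach 100, the log2 fold change was 0.00066 for *Kcnh1*. With the replicate block, the log2 fold change was 0.0010 for *Kcnh1*. With *Xist* as a covariate, the log2 fold change was -0.027 for *Kcnb2*, 0.017 for *Kcnc4*, -0.11 for *Kcnf1*, -0.019 for *Kcnh7*, 0.0024 for *Kcnh8*, -0.023 for *Kcnq3*. In libraries numbered 1 to 3 only, the log2 fold change was 0.13 for *Kcnc4*, 0.018 for *Kcnd3*, 0.0063 for *Kcnh1*, -0.11 for *Kcnh5*, -0.020 for *Kcnq3*, 0.056 for *Kcnq5*, -0.11 for *Kcns3*. In libraries numbered 4 and 5 only, 4 members had an unadjusted p under 0.05 (*Kcnc1* at -0.17, *Kcnc4* at -0.25, *Kcnd1* at -0.14 and *Kcnh5* at 0.36), and the log2 fold change with another sign was -0.013 for *Kcna4*, -0.052 for *Kcna6*, 0.0038 for *Kcnh8*, 0.12 for *Kcnq1*, -0.025 for *Kcns2*, -0.090 for *Kcnv1*. With 1 library left out, the log2 fold changes that changed sign ranged as follows: *Kcna1* -0.022 to 0.11, *Kcna5* -0.095 to 0.041, *Kcnb2* -0.035 to 0.090, *Kcnc4* -0.13 to 0.042, *Kcnf1* -0.26 to 0.41, *Kcnh1* -0.038 to 0.038, *Kcnh3* -0.14 to 0.019, *Kcnh4* -0.18 to 0.028, *Kcnh5* -0.0070 to 0.19, *Kcnh7* -0.023 to 0.077, *Kcnh8* -0.072 to 0.042, *Kcnq3* -0.050 to 0.094, *Kcnq5* -0.081 to 0.041, *Kcns2* -0.0023 to 0.16, *Kcns3* -0.0071 to 0.084, *Kcnv1* -0.051 to 0.079. *Kcna3*, *Kcng2* and *Kcnq1* had 14 to 47 counts per library, and the 5 members not tested had at most 17.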
